A study of Homo sapiens with 27 samples.

Results

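Levels of 9 genes upstream of the interferon-stimulated genes were followed across 4 lines of T47D, an established line of luminal breast cancer. The genes were chosen for their place in the pathway, with earlier results of these data known: the RNA sensors DDX58, IFIH1, DHX58 and TLR3, the adaptor MAVS, and the transcription factors STAT2, IRF9, IRF1 and IRF7. They are 9 of the 26485 genes in the count table, and all 9 were among the 14789 genes that passed the filter on low counts. The lines stably expressed a Ty1-tagged truncation mutant of the transcription factor GATA3 from a lentivirus, either the splice site deletion mutant (Splice del), the C321 frameshift mutant (C321fs) or the A333 frameshift mutant (A333fs), or carried the empty vector (control). Each line was 1 puromycin-selected pool that gave 3 RNA-seq libraries, and all of them, control included, had been infected with lentivirus and kept their wild-type GATA3. Time after infection is not given in the labels, and the labels and the methods name different growth media. Since there was 1 pool per mutant, the mutant cannot be told apart from other differences between pools.

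Cells sense viral RNA in the cytoplasm through the RIG-I-like receptors, which signal through MAVS on mitochondria, and in endosomes through TLR3. These signals activate IRF family factors that switch on interferon genes. Secreted interferon then signals through JAK kinases to STAT factors, among them STAT2, which acts with IRF9 in the ISGF3 complex to bind interferon-stimulated response elements in front of many antiviral genes. Several sensors and factors of the pathway are themselves targets of interferon, so that the pathway feeds back on its own components.

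Libraries held 27872208 to 36788024 counted fragments, and levels are given as CPM, the counts scaled to a common library total after TMM adjustment. The TMM factors lay between 0.884 and 0.943 in control and between 1.01 and 1.05 in the mutant libraries. Transcripts of GATA3 as a whole, wild-type and introduced together as far as the counted exons hold both, were at 1281 CPM in control, 1001 with Splice del, 1142 with C321fs and 1016 with A333fs. This check does not separate the introduced gene from the cell's own. The summed level of 8 luminal markers was 16970 to 20100 CPM in the control libraries and 11090 to 13970 CPM in the mutant libraries. Most of this sum came from the keratins KRT8, KRT18 and KRT19, at 7518, 2615 and 5564 CPM in control, and 3, 2 and 1 of them were called lower in Splice del, C321fs and A333fs cells. The other 5 luminal markers were not called in any line and moved in different directions. EPCAM stood higher in all 3 (log2 fold change 0.42, 0.37 and 0.37). FOXA1 stood lower in all 3 (-0.09, -0.30 and -0.38), as did PGR (-0.02, -0.24 and -0.07). ESR1 (0.23, -0.01 and 0.11) and CDH1 (0.21, -0.07 and 0.27) went both ways. The summed level of 10 immune cell markers was 5.63 to 7.57 CPM in control, 7.95 to 9.72 with Splice del, 6.16 to 7.35 with C321fs and 7.46 to 8.94 with A333fs. The pan-leukocyte marker PTPRC and the B cell marker MS4A1 were at 0 in all 12 libraries. Of the 4 immune markers that were tested, CD14 and ITGAM were called higher in Splice del and A333fs cells and none in C321fs cells, with CD14 at 0.682, 2.50, 0.872 and 1.30 CPM and ITGAM at 0.0229, 0.657, 0.0772 and 1.43 CPM in control, Splice del, C321fs and A333fs. The sum of 6 fibroblast markers was 53.2 to 65.0 CPM in control, 40.9 to 50.7 in Splice del and C321fs and 29.7 to 33.5 in A333fs libraries. Nearly all of it came from the collagens COL1A1 and COL3A1, at 53.4 and 5.13 CPM in control. COL1A2, PDGFRA and PDGFRB had at most 3 counts in every library, so the sum mainly follows COL1A1. THY1 went the other way in A333fs cells, at 0.0770 CPM in control and 0.209 in A333fs. The sum of 4 basal markers was 0.305 to 0.545 CPM in control, 0.296 to 0.516 with Splice del, 0.852 to 1.33 with C321fs and 1.18 to 1.52 with A333fs. TP63 was called higher in C321fs (0.301 CPM in control, 0.769 in C321fs) and KRT14 in A333fs cells (0.0113 and 0.569 CPM). Both rest on few fragments, at most 24 for TP63 and 21 for KRT14 in any library. Of the 2 basal markers that were tested, DESeq2 called 0 higher in C321fs and 1 in A333fs cells. The part of these shifts in the results was not tested.

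Promoter sequence was read from RefSeq (GRCh38.p14) for 7 of the 9 genes, with DDX58 under its current symbol RIGI. DHX58 and IRF7 had no entry. The window ran from 250 bases before to 50 after the start site, and 3 motifs were searched on both strands: the interferon-stimulated response element as GAAANNGAAA, the gamma-activated site of STAT dimers as TTCNNNGAA, and the GATA hexamer, which is GATA with either A or T before it and either A or G after it. Of 35116 promoters, 3.57% held the first, 7.66% the second and 25.0% the third. Among the 7 genes, IFIH1 and TLR3 held the response element, TLR3, IRF9 and IRF1 held the gamma-activated site, and IRF9 held the GATA hexamer. The windows of these 4 genes, IFIH1 at chr2:162318655-162318934 (minus strand), TLR3 at chr4:186068906-186069185 (plus strand), IRF9 at chr14:24161015-24161294 (plus strand) and IRF1 at chr5:132490744-132491023 (minus strand), are printed up to 30 bases after the start, because they hold the motif matches that can be set beside the expression data. Capitals mark matches to the first and the second motif.
IFIH1: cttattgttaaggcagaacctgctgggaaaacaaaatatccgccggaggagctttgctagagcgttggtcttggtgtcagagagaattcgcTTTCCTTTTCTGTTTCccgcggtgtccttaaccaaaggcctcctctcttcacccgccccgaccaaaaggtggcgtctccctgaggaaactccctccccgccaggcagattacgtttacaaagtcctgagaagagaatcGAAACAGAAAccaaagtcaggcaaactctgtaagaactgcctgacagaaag
TLR3: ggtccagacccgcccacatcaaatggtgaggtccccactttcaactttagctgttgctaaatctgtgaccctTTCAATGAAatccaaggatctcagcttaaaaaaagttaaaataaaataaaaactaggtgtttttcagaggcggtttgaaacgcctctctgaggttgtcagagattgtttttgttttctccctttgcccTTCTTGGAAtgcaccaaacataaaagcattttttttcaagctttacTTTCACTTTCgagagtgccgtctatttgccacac
IRF9: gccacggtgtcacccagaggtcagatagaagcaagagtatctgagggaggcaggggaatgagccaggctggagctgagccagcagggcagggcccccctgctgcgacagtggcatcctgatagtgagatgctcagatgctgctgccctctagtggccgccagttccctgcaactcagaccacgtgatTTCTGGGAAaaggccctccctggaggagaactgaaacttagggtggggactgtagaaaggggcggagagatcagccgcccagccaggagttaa
IRF1: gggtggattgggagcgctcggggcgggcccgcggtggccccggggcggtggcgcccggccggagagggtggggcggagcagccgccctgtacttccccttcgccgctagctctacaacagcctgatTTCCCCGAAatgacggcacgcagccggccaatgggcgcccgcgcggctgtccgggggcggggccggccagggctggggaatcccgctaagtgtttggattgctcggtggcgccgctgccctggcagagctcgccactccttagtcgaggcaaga
In IFIH1 the first run of capitals holds 2 matches that overlap, at positions -159 to -150 and -153 to -144 from the start, and the second holds 1 at -21 to -12. In TLR3 the gamma-activated site matched at -178 to -170 and at -50 to -42, and the response element at -4 to 6, across the start itself. The gamma-activated site matched at -63 to -55 in IRF9 and at -124 to -116 in IRF1. The GATA hexamers of IRF9, left in lower case, began at -228 and -133. A match describes these letters and not binding of a factor, and a window without a match says only that these letters are not in it.

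The levels were compared with edgeR's quasi-likelihood test, fitted to all 12 libraries. Calls needed a p below 0.01 after Benjamini-Hochberg adjustment over all 14789 genes, together with a fold change over 1.5. Of the 9 genes, 7 were called higher and 0 lower in Splice del than in control cells, where 6.21% of all tested genes were called higher and 4.53% lower. In C321fs cells 6 were called higher and 0 lower (4.63% and 2.26% of all tested genes). In A333fs cells 3 were called higher and 0 lower (5.46% and 6.81% of all tested genes). The median log2 fold change of the 9 genes was 0.67 with Splice del, 0.77 with C321fs and 0.48 with A333fs, beside 0.03, 0.02 and 0.0086 over all tested genes. At an unadjusted p below 0.05, 1 gene (MAVS) was lower in each of the 3 comparisons, and DESeq2 called 0 lower and 6, 6 and 3 higher. DESeq2 called 3.8%, 2.77% and 3.8% of 21227 genes higher and 3.39%, 1.7% and 4.46% lower. The share of all genes lower at an unadjusted p below 0.05 is not given. It is at least that at an adjusted p below 0.01 without a fold limit, which was 22.4%, 20.7% and 26.4%. The 3 comparisons share the control libraries and are not independent of each other. In each of them every library of the mutant line lay above every control library for 8, 7 and 6 of the 9 genes, beside 31.7%, 27.3% and 31.2% of all tested genes. An F-test over the 4 lines gave an adjusted p below 0.01 for all 9 genes, as it did for 56.2% of all tested genes. In bulk RNA, fewer cells with a transcript and less of it per cell cannot be told apart.

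**Figure D1:**
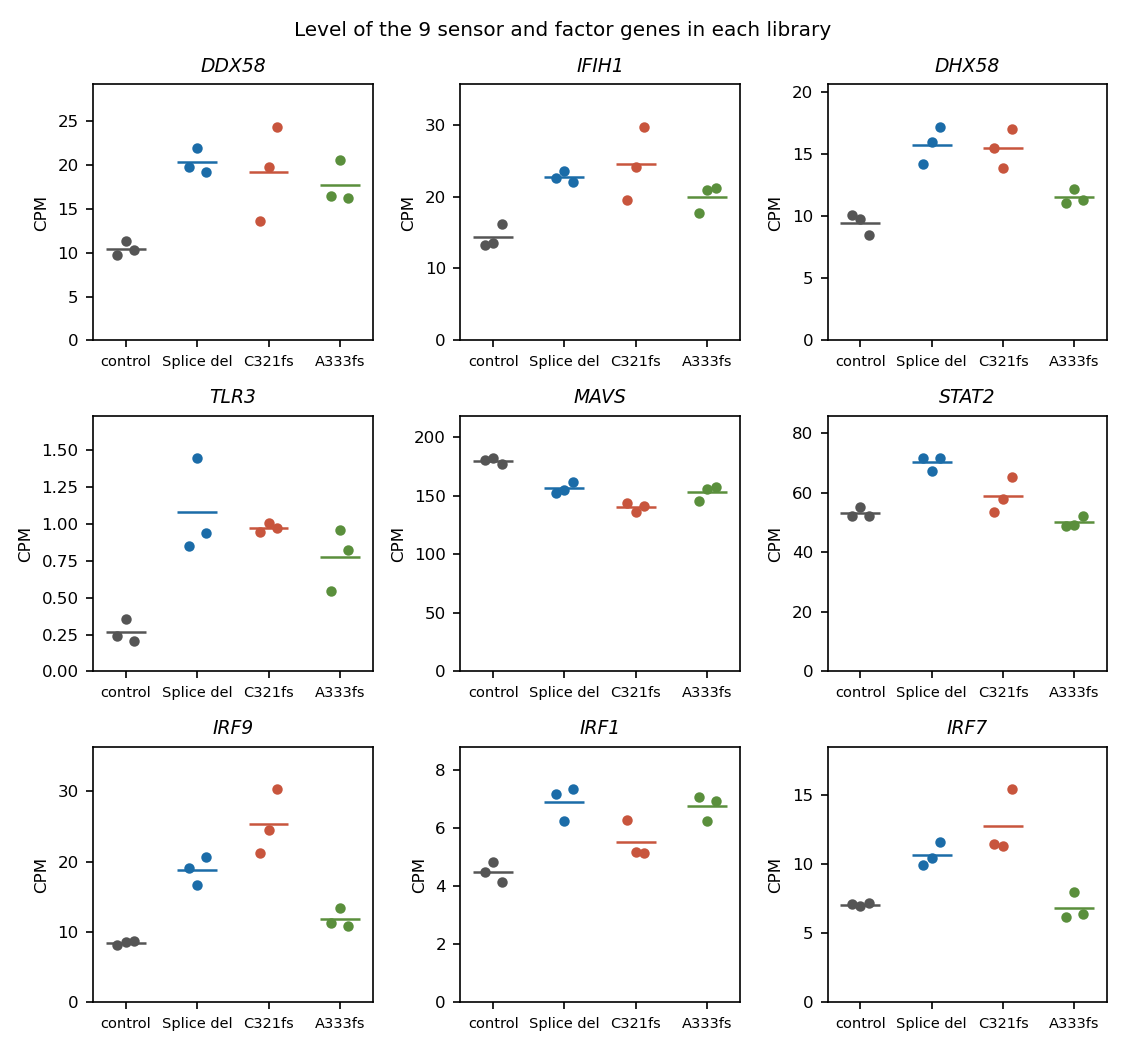
Levels of the 9 genes in CPM (linear axes from 0) in the 3 libraries of each line, with 1 point per library and a bar at the mean. DDX58 and TLR3 lay above all control libraries in all 9 mutant libraries, MAVS lay below them, and IRF7 in A333fs cells lay at the control level.

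DDX58 encodes RIG-I, the receptor for short RNA with a 5′ triphosphate. It lies on the minus strand at chr9:32455302-32526324 (hg38) and its annotated exons have a GC content of 40.4%. DDX58 was at 9.70, 11.3 and 10.3 CPM in the control libraries, 19.7, 22.0 and 19.2 with Splice del, 13.6, 19.8 and 24.3 with C321fs and 16.4, 20.5 and 16.2 with A333fs. No mutant library reached down to the control range, while the C321fs libraries were spread the most. The log2 fold change against control was 0.96 ± 0.16 (SE, adjusted p = 1.17e-04) with Splice del, 0.88 ± 0.16 (3.68e-04) with C321fs and 0.76 ± 0.16 (7.31e-04) with A333fs, and it was called in all 3. Between the mutant lines DDX58 was not called, and the 95% interval of the log2 difference ran from -0.44 to 0.21 between A333fs and C321fs and from -0.52 to 0.12 between A333fs and Splice del.

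IFIH1 encodes MDA5, the receptor for long double-stranded RNA, on the minus strand at chr2:162267079-162318708. Its level was 13.3, 13.5 and 16.2 CPM in control, 22.6, 23.6 and 22.0 with Splice del, 19.6, 24.2 and 29.6 with C321fs and 17.7, 20.9 and 21.2 with A333fs. All 9 mutant libraries lay above the 3 control libraries, and again the C321fs libraries were furthest apart. The log2 fold change was 0.67 ± 0.12 (adjusted p = 3.35e-04) in Splice del and 0.77 ± 0.12 (1.44e-04) in C321fs cells, both called. In A333fs cells it was 0.48 ± 0.13 with an adjusted p of 0.00392, past the p threshold but not past the fold threshold, and with upper-quartile factors it was called (0.59). With the trend over GC content and exon length removed, the values were 0.43, 0.55 and 0.19 (adjusted p = 0.139 for the last), and IFIH1 was called in none of the 3 lines.

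DHX58 encodes LGP2, the RIG-I-like receptor without signalling domains that modulates the others. It lies on the minus strand at chr17:42101406-42112733. Its level was 10.1, 9.75 and 8.51 CPM in control, 14.2, 15.96 and 17.2 with Splice del, 15.5, 13.9 and 17.01 with C321fs and 11.1, 12.2 and 11.3 with A333fs. The A333fs libraries stood between the control and the other mutant libraries without overlap. DHX58 was called higher in Splice del (log2 fold change 0.73 ± 0.10, adjusted p = 1.7e-05) and in C321fs cells (0.71 ± 0.10, 4.1e-05). The A333fs value was 0.28 ± 0.10 (adjusted p = 0.0225). Set directly against the other mutants, A333fs cells were at a log2 difference of -0.43 from C321fs (adjusted p = 0.00362) and -0.45 from Splice del cells (0.00326), past the p threshold and short of the fold threshold.

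TLR3, the endosomal receptor for double-stranded RNA, lies on the plus strand at chr4:186069155-186085098. It was the member with the fewest counts and the largest fold change. The control libraries held 7, 11 and 6 fragments, the Splice del libraries 33, 49 and 27, the C321fs libraries 31, 29 and 30 and the A333fs libraries 17, 30 and 28. All mutant libraries lay above control, but each level rests on few fragments. On the CPM scale the mean was 0.266 ± 0.076 (SD, n = 3) in control, 1.08 ± 0.32 with Splice del, 0.974 ± 0.031 with C321fs and 0.776 ± 0.21 with A333fs. The fold change was 3.98 (95% interval 2.48 to 6.38, adjusted p = 9.61e-05) with Splice del, 3.59 (2.20 to 5.85, 3.40e-04) with C321fs and 2.87 (1.73 to 4.77, 0.00129) with A333fs, called in all 3. Per kilobase of exon TLR3 stood at percentile 2.98 of all tested genes in control and between 7.93 and 9.70 in the mutant lines.

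MAVS, the mitochondrial adaptor that RIG-I and MDA5 signal through, lies on the plus strand at chr20:3846799-3876123. It was the only one of the 9 genes whose libraries all lay below control in all 3 mutant lines. MAVS was at 181, 182 and 177 CPM in control, 153, 155 and 162 with Splice del, 144, 136 and 141 with C321fs and 145, 156 and 158 with A333fs. The differences were small, with log2 fold changes of -0.20 ± 0.05 (adjusted p = 0.00303), -0.36 ± 0.05 (4.79e-05) and -0.23 ± 0.05 (8.61e-04), and none passed the fold threshold. With no TMM factors they were -0.02, -0.19 and -0.09, nearer to 0. Removing the trend over GC content and length moved them to -0.35, -0.255 and -0.32, further from 0 in Splice del and A333fs and nearer to it in C321fs cells. Per kilobase its control level of 15.3 CPM per kilobase was the highest of the 9 genes. In the same unit DDX58 was at 2.19, IFIH1 at 3.98 and DHX58 at 3.62 in control cells. The sensor levels were lower than that of their adaptor in every line, with the highest sensor mean, IFIH1 in C321fs cells, at 6.80 against 11.9 for MAVS.

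**Figure D2:**
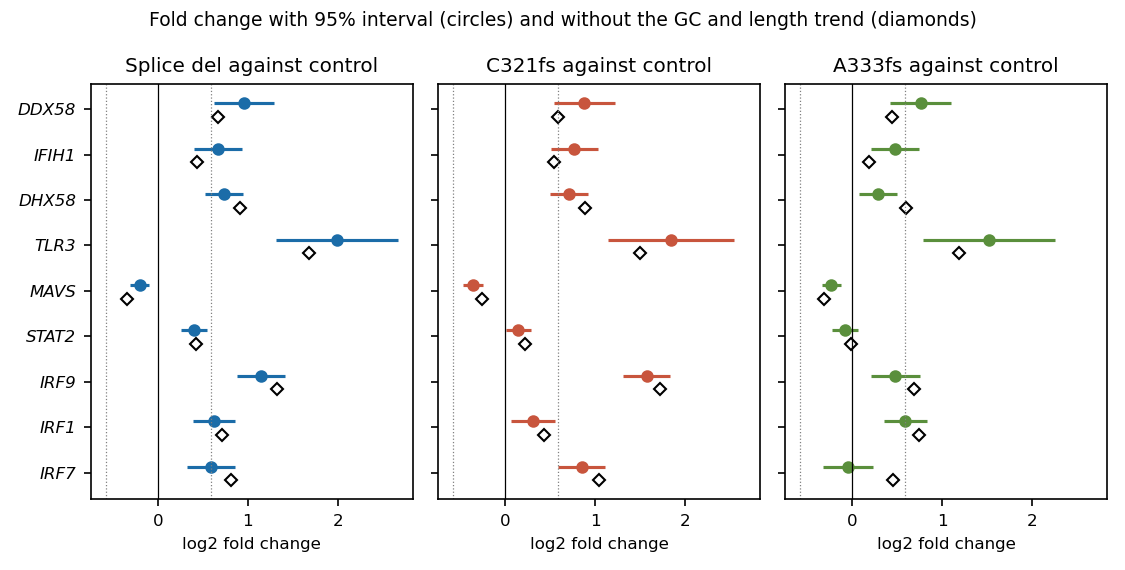
Log2 fold change of each gene against control, with circles and 95% intervals from the fit to all 12 libraries and open diamonds from the fit with the trend over GC content and exon length removed. Dotted lines mark a fold change of 1.5 in either direction. The diamonds lie left of the circles for DDX58, IFIH1 and TLR3 and right of them for DHX58, IRF9, IRF1 and IRF7.

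STAT2 and IRF9 are subunits of the ISGF3 complex, in which STAT2 brings an activation domain and IRF9 the main DNA contacts. STAT2 lies on the minus strand at chr12:56341598-56360253. It was at 52.3, 55.2 and 52.0 CPM in control, 71.5, 67.3 and 71.6 with Splice del, 53.5, 58.0 and 65.2 with C321fs and 48.7, 49.3 and 52.2 with A333fs. The Splice del libraries lay above all others, whereas the C321fs and A333fs libraries overlapped control. The log2 fold change was 0.40 ± 0.07 (adjusted p = 1.47e-04) with Splice del, 0.15 ± 0.07 (0.0797) with C321fs and -0.09 ± 0.07 (0.290) with A333fs, and it was not called in any. The last value was 0.0255 with upper-quartile factors, and with no TMM factors STAT2 was called in Splice del cells (0.59). Without C321fs replicate 3 the value in C321fs cells was 0.07.

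IRF9, on the plus strand at chr14:24161213-24166566, had the lowest adjusted p of the 9 genes in the F-test over the 4 lines (2.21e-07). IRF9 was at 8.18, 8.66 and 8.68 CPM in control, 19.1, 16.7 and 20.7 with Splice del, 21.2, 24.6 and 30.3 with C321fs and 11.4, 13.4 and 10.8 with A333fs. The libraries of the 4 lines did not overlap, in the order control, A333fs, Splice del and C321fs. The fold change against control was 2.98 (95% interval 2.48 to 3.58, adjusted p = 3.72e-07) in C321fs and 2.22 (1.84 to 2.66, 2.9e-06) in Splice del cells. In A333fs cells it was 1.39 (1.15 to 1.69, 0.00479), short of the fold threshold, which it passed with upper-quartile factors (log2 fold change 0.59). IRF9 was lower in A333fs than in C321fs cells by a log2 difference of -1.10 ± 0.12 (adjusted p = 4.92e-06) and lower than in Splice del cells by -0.67 ± 0.12 (0.00106), both called. The neighbours C321fs and Splice del differed by -0.43 ± 0.11 (0.0221), which was not called.

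Per kilobase, the ratio of STAT2 to IRF9 was 2.31 ± 0.08 (SD, n = 3) in control, 1.38 ± 0.11 with Splice del, 0.865 ± 0.069 with C321fs and 1.57 ± 0.21 with A333fs. The control libraries lay above all mutant libraries and the C321fs libraries below all others. Among the sensors, the ratio of IFIH1 to DDX58 was 1.82 ± 0.25 in control, 1.48 ± 0.05 with Splice del, 1.71 ± 0.17 with C321fs and 1.498 ± 0.20 with A333fs. The Splice del libraries lay below the control libraries, and those of the other mutants overlapped them. The ratio of DHX58 to IFIH1 lay between 0.800 and 0.957 on average in the 4 lines, with overlap of each mutant line with control. These ratios describe RNA and were not tested.

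**Figure D3:**
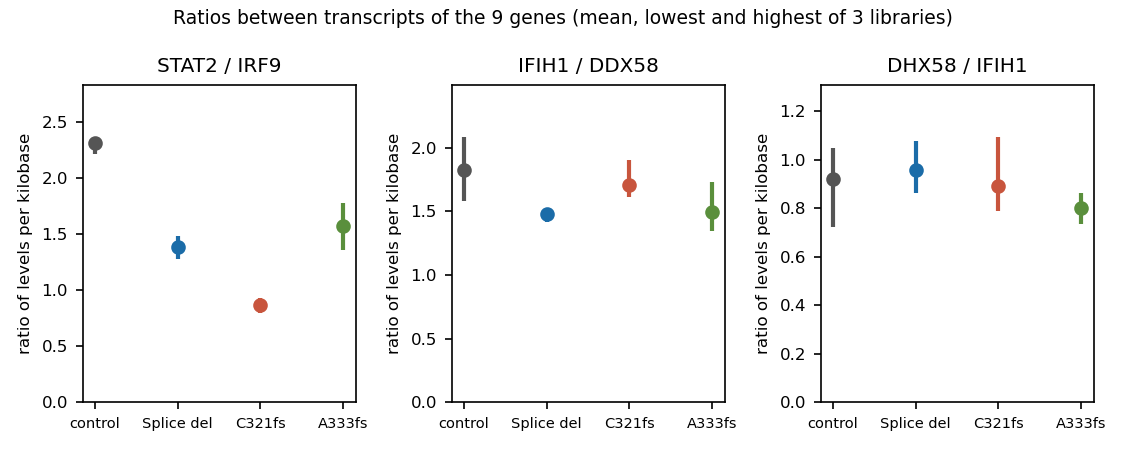
Ratios of the levels per kilobase of STAT2 to IRF9, IFIH1 to DDX58 and DHX58 to IFIH1 in each line, with points at the mean and bars from the lowest to the highest of 3 libraries. STAT2 to IRF9 was 2.31 in control and 0.865 in C321fs cells, while DHX58 to IFIH1 overlapped between control and each mutant line.

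IRF1 is a factor that interferon gamma and NF-kappaB signalling induce, and IRF7 amplifies the production of type I interferon. IRF1 lies on the minus strand at chr5:132481609-132490773. It was at 4.48, 4.84 and 4.13 CPM in control, 7.17, 6.24 and 7.35 with Splice del, 6.30, 5.17 and 5.15 with C321fs and 7.07, 6.25 and 6.96 with A333fs. All mutant libraries lay above control, with the C321fs libraries nearest to it. IRF1 was called higher in Splice del (log2 fold change 0.62 ± 0.11, adjusted p = 2.43e-04) and in A333fs cells (0.59 ± 0.11, 3.27e-04), close to the fold threshold in both. In C321fs cells the log2 fold change was 0.31 ± 0.12 (0.0361). Set against C321fs cells directly, neither difference was called (0.32 with adjusted p = 0.0699 for Splice del and 0.28 with 0.0638 for A333fs). The A333fs call was lost without control replicate 3, A333fs replicate 1 or A333fs replicate 3 (log2 fold change 0.53, 0.56 and 0.57), and the Splice del call without control replicate 3 or Splice del replicate 3 (0.57 and 0.58).

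IRF7 lies on the minus strand at chr11:612555-615999, with a copy of the annotation on an alternate contig, so that its level per kilobase is less certain than that of the others. It was at 7.09, 6.96 and 7.15 CPM in control, 9.96, 10.4 and 11.6 with Splice del, 11.5, 11.3 and 15.4 with C321fs and 6.16, 7.98 and 6.40 with A333fs. The Splice del and C321fs libraries lay above control, whereas the A333fs libraries lay on both sides of it. IRF7 was called higher in C321fs (log2 fold change 0.85 ± 0.12, adjusted p = 6.71e-05) and in Splice del cells (0.59 ± 0.13, 9.57e-04). The Splice del call sat at the fold threshold and was lost with RLE factors and with DESeq2 (0.58 in both) and without control replicate 2 or Splice del replicate 3 (0.58 and 0.53). The A333fs value was -0.05 ± 0.13 (0.78), with a 95% interval from -0.33 to 0.23, and it was 0.0646 with upper-quartile factors and 0.46 (0.0224) once the trend over GC content and length was removed. IRF7 was called lower in A333fs than in C321fs cells (-0.90 ± 0.12, adjusted p = 6.27e-05) and than in Splice del cells (-0.64 ± 0.13, 0.00197). The second of these calls was lost with the trend removed (-0.36, adjusted p = 0.0659) and without Splice del replicate 3, A333fs replicate 1 or A333fs replicate 3 (-0.57, -0.57 and -0.59).

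Between the mutant lines 2 of the 9 genes were called in 2 comparisons and none in the other. A333fs cells had 2 called lower and 0 higher than C321fs cells, where 3.08% of all tested genes were called lower and 2.47% higher, and 2 lower and 0 higher than Splice del cells (1.97% and 1.03%). Both times the genes were IRF9 and IRF7. Splice del and C321fs cells differed in 0 of the 9 genes in either direction, beside 1.76% of all tested genes higher and 0.879% lower in Splice del cells. At an unadjusted p below 0.05 Splice del cells had 3 genes higher and 2 lower than C321fs cells, and DESeq2 called 0 in either direction. DESeq2 called 1.21% of 21227 genes higher and 0.579% lower. At an adjusted p below 0.01 without a fold limit 4.18% of all tested genes were higher and 2.14% lower. The shares at an unadjusted p below 0.05 are at least these.

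GC content moved with the fold changes. In A333fs cells the tenth of tested genes with the GC content of IRF7 (66.9%) had a median log2 fold change of -0.50 and the tenth that holds DDX58 a median of 0.31. The corresponding medians were -0.28 and 0.27 in Splice del and -0.25 and 0.27 in C321fs cells. With this trend removed, the log2 fold change of DDX58 was 0.66 with Splice del, 0.59 with C321fs and 0.44 with A333fs, and that of IFIH1 0.43, 0.55 and 0.19, which ended the call of DDX58 in A333fs cells and both calls of IFIH1. In the other direction, DHX58 became 0.91, 0.89 and 0.60 and IRF9 1.33, 1.73 and 0.68, and both were then called in A333fs cells. TLR3 stayed called in all 3 lines (1.68, 1.51 and 1.19), and IRF9 was still the gene with the lowest adjusted p of the 9 in C321fs cells (1.49e-08). The counts of the 9 genes called higher were then 6, 5 and 4, beside 5%, 3.42% and 4.03% of all tested genes, and 0 were called lower, beside 1.97%, 1.14% and 1.49%.

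Calls in the other layers of the pathway are set beside the shares of all tested genes called in Splice del, C321fs and A333fs cells, 6.21%, 4.63% and 5.46% higher and 4.53%, 2.26% and 6.81% lower. With DESeq2 the shares were 3.8%, 2.77% and 3.8% higher and 3.39%, 1.7% and 4.46% lower. The DESeq2 shares are of 21227 genes, more than the 14789 that passed the filter, so the 2 sets of shares have different bases. Shares at an unadjusted p below 0.05 are not given. They are at least those at an adjusted p below 0.01 without a fold limit. The latter were 18.7%, 16.1% and 21% higher and 22.4%, 20.7% and 26.4% lower. Of 38 further sensing and adaptor genes, 33 were tested, and 2 were called higher with Splice del, 1 with C321fs and 0 with A333fs, while 0, 0 and 2 were called lower by edgeR. At an unadjusted p below 0.05, 13, 9 and 12 were higher and 10, 10 and 16 lower, and DESeq2 called 2, 1 and 0 higher and 0, 1 and 2 lower. IRAK4, a kinase of Toll-like receptor signalling, rose in Splice del (log2 fold change 0.70, adjusted p = 1.83e-05) and in C321fs cells (0.67, 4.8e-05), and RNF125, a ubiquitin ligase that targets RIG-I, rose in Splice del cells (0.83, 3.51e-05). TICAM1, the adaptor of TLR3, was called lower in A333fs cells (-0.73, 8.73e-06). It stood at -0.47 (4e-04) in Splice del and -0.57 (1.4e-04) in C321fs cells, short of the fold threshold. IRAK1 was called lower in A333fs cells as well (-0.60, 1.96e-05). The receptor TLR3 and its adaptor TICAM1 moved in opposite directions in all 3 mutant lines. No value of TICAM1, IRAK1 or any other gene outside the 9 is given with the trend over GC content and length removed.

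All 20 genes of a list of interferon receptors, JAK kinases and their negative regulators were tested, and edgeR called 0 in any of the 3 comparisons, where their medians were 0.08, 0.18 and 0.07. DESeq2 also called 0, and at an unadjusted p below 0.05 there were 7, 8 and 7 higher and 3, 4 and 6 lower. A list of 14 other STAT and IRF genes also held IRF2-binding proteins, which are not IRF factors. Of the 14, 11 were tested, with 1, 0 and 1 called higher and as many lower. The only one called lower was the binding protein IRF2BP1, and no STAT or IRF factor of the list was. At an unadjusted p below 0.05, 3, 0 and 3 were higher and 3, 6 and 6 lower, and DESeq2 called 1, 0 and 1 higher and as many lower. Those lower in C321fs cells included the binding proteins IRF2BP1 (log2 fold change -0.56, adjusted p = 1.31e-04) and IRF2BP2 (-0.30, 2.9e-04). STAT5A, which acts downstream of prolactin, rose in Splice del (log2 fold change 1.05, adjusted p = 0.00197) and in A333fs cells (1.06, 0.00165), and IRF2BP1, a corepressor partner of IRF2, fell in both (-0.64, 2.72e-05 and -0.79, 3.21e-06). IRF3, the factor that MAVS and TLR3 signalling activate first, was at 47.5, 39.0, 41.7 and 31.7 CPM in control, Splice del, C321fs and A333fs cells. Its log2 fold change of -0.58 in A333fs cells had an adjusted p of 1.81e-05 and was just short of the fold threshold. For IRF2BP1 and IRF3 too, no value is given with the trend over GC content and length removed.

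The interferon genes themselves were at or near 0. Of 22 ligand genes 16 had no count in any of the 12 libraries, and none passed the filter. In control libraries 1 ligand gene had a count, of 1 fragment. The highest count was 7, for IFNL1 in C321fs replicate 2, which is 0.243 CPM. A count of 0 allows up to 3 counts, or 0.0774 to 0.105 CPM in these libraries, for counting error only. The counts of all ligand genes summed to 1 to 7 in each mutant library and to at most 1 in a control library. No ligand gene had counts enough for a test, and the difference between these sums was not tested.

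Downstream, 41 of 44 interferon-stimulated effector genes were tested. Of these, 22 were called higher with Splice del, 21 with C321fs and 15 with A333fs, and 0 lower, with medians of 0.99, 0.91 and 0.68. DESeq2 called 22, 20 and 16 higher and 0 lower, and at an unadjusted p below 0.05 there were 0, 0 and 3 lower. The edgeR counts stand beside the 6.21%, 4.63% and 5.46% of all tested genes called higher, and the DESeq2 counts beside 3.8%, 2.77% and 3.8% of 21227 genes. Between A333fs and C321fs cells 9 of the 41 were called lower and 3 higher in A333fs cells, beside 3.08% and 2.47% of all tested genes. GBP1, a GTPase induced by interferon gamma, was one of the 3, at 0.158 CPM in control and 0.181 in C321fs but 1.49 in A333fs cells (adjusted p = 6.39e-06 for the difference). Between A333fs and Splice del cells 0 of the 41 were called lower and 2 higher in A333fs cells, beside 1.97% and 1.03% of all tested genes. DESeq2 also called 0 lower and 2 higher, beside 1.16% and 0.693% of 21227 genes. At an unadjusted p below 0.05, 18 were lower and 2 higher. The shares of all tested genes at that limit are at least 7.29% and 4.63%.

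**Figure D4:**
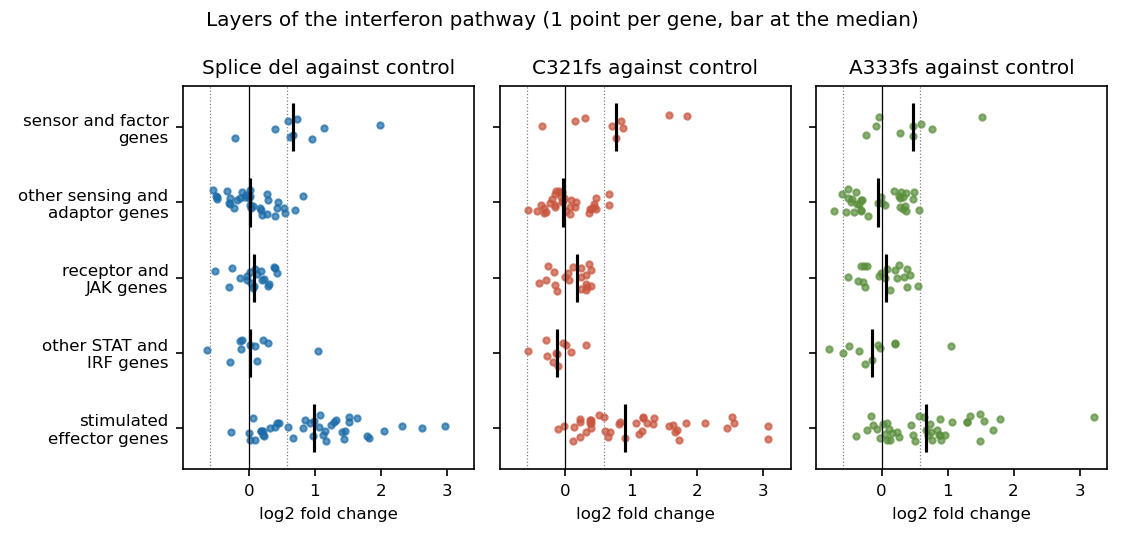
Log2 fold change against control of the tested genes of each layer, with 1 point per gene, a black bar at the median and dotted lines at a fold change of 1.5. The receptor and JAK genes lie within the dotted lines in all 3 comparisons, while the effector genes have medians of 0.99, 0.91 and 0.68. The layer of other STAT and IRF genes also holds IRF2-binding proteins.

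The pattern over the 12 libraries was compared by the root mean square difference of log2 CPM, each gene centred on its own mean, for the 7 genes called against control in at least 1 line. Nearest to DDX58 were PARP14 (0.120), SP100 (0.121) and KIF27 (0.123), the first an interferon-stimulated gene of the effector list. PARP14 itself was called higher in all 3 mutant lines (log2 fold change 1.06, 0.91 and 0.89). Nearest to IRF9 were IFITM1 (0.176), IL6R (0.179) and CHD5 (0.186). IFITM1, which blocks virus entry at the membrane, was at 11.2, 13.2, 19.7 and 26.4 CPM in control, A333fs, Splice del and C321fs cells, the order of IRF9. Neighbours were picked for likeness over these same libraries. The shared order of IFITM1 and the calls of PARP14 are therefore largely built into the choice. The neighbours of IRF7 were SEMA3C (0.118), TRERF1 (0.119) and IGF2BP2 (0.136), and those of IRF1 were PSMB8 (0.0788), MDK (0.0827) and FBLIM1 (0.103). Those of IFIH1 were FKBP14 (0.102), SUCO (0.103) and BBX (0.103), those of DHX58 were FAM69A (0.0943), TSPAN12 (0.114) and ELOVL6 (0.121), and those of TLR3 were ITGB6 (0.215), XKRX (0.253) and BMPR1B (0.267). Among the 9 genes themselves DDX58 and IFIH1 were the closest pair (0.177) and TLR3 and MAVS the farthest apart (0.863). Genes outside the 9 lay nearer to both of the pair, PARP14 at 0.120 to DDX58 and FKBP14 at 0.102 to IFIH1. The measure also grows with the size of a gene's changes.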

How the data were processed

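Whole-transcriptome RNA-seq of 12 libraries from T47D cells was used, 3 for each of 4 lines. Per the labels and the methods, the authors trimmed the reads, mapped them to hg38 and used featureCounts 1.6.4 to count, for each gene, fragments whose 2 reads were properly paired. The deposited values are raw counts, not normalized, with replicates kept apart. The notes name HISAT2 whereas the file header points to another aligner, so the aligner is not settled. The counting ignored the strand and left out fragments that mapped to several places or overlapped several genes. No other annotated gene overlapped exons of the 9 genes. The ChIP-seq of the same lines was not analysed here.

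Genes were filtered with edgeR's filterByExpr by line, scaled by TMM and fitted in edgeR 4.0.16 (glmQLFit and glmQLFTest, R 4.3.3) with 1 coefficient per line. Calls needed an adjusted p below 0.01 (Benjamini-Hochberg) and a fold change over 1.5. The SE of a log2 fold change was taken from the quasi-likelihood F statistic. Levels per kilobase used exon length on the primary chromosomes, since 1205 of the 26485 genes were also annotated on other sequences, IRF7 among them. CPM and levels were described without tests. The study calls the 3 libraries of a line biological replicates, but each line was 1 pool of cells and neither the labels nor the methods describe separate cultures, so p-values measure the spread between libraries of 1 pool.

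The alternatives were RLE and upper-quartile factors, no filter, at least 10 counts in every library, only the libraries of a pair, DESeq2 1.42.0, an adjusted p of 0.05, no fold limit, a replicate block, removal of a loess trend (span 0.3) over GC content and length, and each library left out. A fit with no TMM factors was added after seeing the data. The procedure was tested on simulated data. The 9 genes and the lists were chosen with earlier results of these data known. Named genes were the 9 genes, IRF3, up to 4 called genes from any list, by lowest adjusted p, and the 3 nearest patterns of each called gene, and 1 further gene of that rule is not reported here, while IFNL1 was named after its values were seen. Motifs were searched in 300 bases around RefSeq start sites. Shared replicate numbers did not pair libraries: the correlation of residuals averaged -0.0092 over 18 pairs.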

Additional observations from a re-analysis of the deposited data

Results flagged for a closer look

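IRF9 and IRF7 stood out because their effects differed between mutant lines by a direct edgeR test. IRF9 was lower in A333fs than in C321fs cells (log2 difference -1.10, adjusted p = 4.92e-06, 11.9 against 25.4 CPM) and than in Splice del cells (-0.67, 0.00106, against 18.9 CPM). All 3 A333fs libraries lay below all libraries of both other lines. IRF7 was lower in A333fs than in C321fs cells (-0.90, 6.27e-05, 6.85 against 12.8 CPM) and than in Splice del cells (-0.64, 0.00197, against 10.7 CPM), again without overlap of the libraries. With the trend over GC content and length removed, the differences from C321fs cells were -1.05 for IRF9 and -0.59 for IRF7, and those from Splice del cells were -0.65 and -0.36. The part of this trend in the differences was not tested further. A group of 3 libraries is too small for a search for single libraries that stand apart.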

How the results depend on the processing

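Under the alternatives other than the fit with no TMM factors, 564 of 591 fold changes against control and 571 of 591 between mutant lines kept their direction and their call. In A333fs against control cells the count called higher was 3 of the 9 genes, beside 5.46% of all tested genes. It was 5 with upper-quartile factors (8.99%), with no fold limit (21.0%) and with no TMM factors (10.4%). With no fold limit 1 gene, MAVS, was called lower in each of the 3 mutant lines, as were 22.4%, 20.7% and 26.4% of all tested genes. In A333fs against Splice del cells the count called lower was 2, and it was 4 with no fold limit (7.29% of all tested genes), 1 with the GC and length trend removed (1.41%), and 1 to 2 with 1 library left out. It was 1 without Splice del replicate 3, A333fs replicate 1 or A333fs replicate 3. In smaller changes, the 7 genes called higher in Splice del cells (6.21% of all tested genes) became 8 with no fold limit (18.7%) and with no TMM factors (13.7%). STAT2 was then added. They became 6 with RLE factors (5.96%), DESeq2 (3.8% of 21227 genes) and the trend removed (5%). The 2 called lower in A333fs than in C321fs cells (3.08%) became 3 with no fold limit (8.89%), DHX58 being added. TLR3 did not pass the filter of at least 10 counts in every library. The counts called higher were then 6, 5 and 2, beside 6.27%, 4.77% and 5.2% of the genes that passed.

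Directions turned for values near 0 in the main fit, and also for MAVS between mutant lines. In A333fs against control cells, STAT2 was at 0.0255 with upper-quartile factors and 0.0610 with no TMM factors, and IRF7 at 0.0646 with upper-quartile factors, 0.46 with the trend removed, 0.10 with no TMM factors and between -0.13 and 0.0208 with 1 library left out. With the trend removed, MAVS was at -0.10 between Splice del and C321fs, -0.0604 between A333fs and C321fs and 0.0360 between A333fs and Splice del cells, and IRF1 at 0.0241 in the last comparison. With 1 library left out, the difference between Splice del and C321fs cells ranged from -0.13 to 0.31 for TLR3, -0.0476 to 0.0955 for DHX58, -0.12 to 0.29 for DDX58 and -0.24 to 0.0577 for IFIH1, that between A333fs and C321fs cells from -0.32 to 0.0887 for DDX58, and that between A333fs and Splice del cells from -0.10 to 0.0520 for IRF1 and -0.0549 to 0.0040 for MAVS. The cause was not tested.

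Scaling shifts all genes. The median log2 fold change of all tested genes against control was 0.12, 0.11 and 0.12 with upper-quartile factors and 0.22, 0.19 and 0.16 with no TMM factors, for Splice del, C321fs and A333fs. Calls over all genes in A333fs cells went from 808 higher and 1007 lower to 1329 and 475 with upper-quartile factors and to 1544 and 380 with no TMM factors. In Splice del cells they went from 918 and 670 to 1321 and 348 and to 2025 and 171, and in C321fs cells from 684 and 334 to 1024 and 163 and to 1518 and 110. The fit with the trend removed called 740, 506 and 596 genes higher and 291, 168 and 221 lower, for Splice del, then C321fs, then A333fs.

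A replicate block left the counts called higher against control at 7, 6 and 3 and changed no call of the 9 genes. The shares of all tested genes called higher were then 6.04%, 4.48% and 5.42%. Of the 12 libraries 4 correlated best with a library of their own number. Depth limits TLR3, with 6 to 49 fragments per library, and the interferon ligands.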
